A study of Homo sapiens with 14 samples.

Results

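The Hippo genes described here are 10: the kinase genes LATS1, LATS2, STK3 and STK4, the scaffold gene SAV1, the upstream genes NF2 and WWC1, and the angiomotin family genes AMOT, AMOTL1 and AMOTL2. They were chosen by name as negative regulators of the transcriptional coactivator YAP, and each matched 1 locus among 27543 named loci of the expression table. RNA came from MCF-10A, an immortalised, non-tumorigenic human mammary epithelial cell line, harvested on day 2 after infection with a retrovirus. The 14 libraries form 7 groups of 2. All carry a retroviral vector, and 4 groups received MRTFB dN, a form of the SRF coactivator MRTFB that does not bind G-actin. MRTFB dN Y305A/dPY lacks binding to SRF and to YAP, MRTFB dN Y305A lacks SRF binding, MRTFB dN dPY lacks YAP binding, and MRTFB dN keeps both. The other groups are YAP 5SA, a hyperactive YAP, and the empty pMSCV Puro and pMSCV Hygro vectors. The labels do not name the vector that carried each construct, so both vectors are used as controls. The labels do not say whether the 2 samples of a group came from separate infections, so the p-values measure the spread between these samples, which may be technical.

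In the Hippo pathway, the MST kinases (encoded by STK4 and STK3) act with the scaffold SAV1 to activate the LATS kinases, which phosphorylate YAP and its paralog TAZ and keep them out of the nucleus. Merlin, encoded by NF2, and KIBRA, encoded by WWC1, act upstream at the cell membrane, and angiomotins bind YAP directly and also bind F-actin. YAP works in the nucleus through TEAD transcription factors. Several of its inhibitors, LATS2 and AMOTL2 among them, are known TEAD targets, which is why these genes are looked at as possible feedback. MRTFs are held by G-actin and, once free, activate genes through SRF.

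RefSeq promoters of build GRCh38.p14, from 250 bases before to 50 after the start, were at hand for 9 of the 10 genes, in 12 promoters. GGAATG, the core of the site that TEAD factors bind, was searched on both strands, as was the longer GGAATGT, every match of which also holds the core. The core was found in a promoter of AMOTL2 and in that of LATS2, and it occurs in 4928 of 35116 promoters. GGAATGT was found in AMOTL2, and in 3.46% of promoters. The CArG box of SRF was found in none of the 12, against 1.29% of promoters. The sequences are shown because AMOTL2 was the member with the highest level in YAP 5SA and LATS2 is the LATS gene with the higher level there. The first is the 250 bases before the start of AMOTL2 at chr3:134374448-134374697, minus strand, in which capitals mark the core as read on the other strand. The second is a 30-base window of LATS2 at chr13:21061560-21061589, minus strand, with the core in capitals from the 10th base after the start. A match of letters is a description of the sequence and no evidence of binding.
AMOTL2: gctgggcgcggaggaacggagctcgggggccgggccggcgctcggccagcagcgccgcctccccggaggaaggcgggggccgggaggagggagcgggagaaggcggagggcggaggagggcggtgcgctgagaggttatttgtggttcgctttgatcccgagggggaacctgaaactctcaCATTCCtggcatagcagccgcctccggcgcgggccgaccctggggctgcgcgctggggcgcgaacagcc
LATS2: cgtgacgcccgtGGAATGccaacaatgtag

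Levels are FPKM, fragments scaled by locus length and library size. The table has no counts, so absolute depth is unknown; relative depth, read from the steps between low values, ran from 0.314 in Puro vector replicate 1 to 1.39 in YAP 5SA replicate 1, taking as 1 the first Hygro library. Puro vector replicate 1 stood apart, with 4780 unnamed loci at 1 FPKM or more against 211 to 669 in the other libraries. MRTFB dN dPY replicate 1 is empty over 5257 loci, and STK3 and AMOT, which lie there, are missing in it. The introduced genes matched the labels. MKL2, under which MRTFB is listed, ranged over 165 to 610 FPKM where MRTFB was introduced, while the Puro vector had 3.66 and 6.599. The YAP 5SA libraries had 625 and 529 FPKM of YAP1, beside 32.4 and 23.3 in the Hygro vector. The basal keratin gene KRT5 was at 554 FPKM or more in every library. The basal gene TP63 ran from only 0.545 to 10.4 FPKM, and the locus KRT14,KRT16 from 31.0 to 2336. The epithelial KRT18 was listed at 0 in 2 libraries. Markers of other cell types were mixed: the leukocyte gene PTPRC and the fibroblast gene LUM did not exceed 0.0316 and 0.0628 FPKM, but the leukocyte gene CD14 reached 149 FPKM, the fibroblast gene DCN 13.7 and the endothelial gene CDH5 14.6. In MRTFB dN against the Puro vector CD14 was 18.7-fold lower (adjusted p = 0.00617), DCN 5.27-fold lower (adjusted p = 0.00718) and CDH5 3.70-fold higher (adjusted p = 0.00529). Basal markers moved both ways there, with KRT17 37.2-fold, KRT14,KRT16 27.0-fold and CDH3 3.45-fold higher and TP63 3.74-fold lower. Of the 6 basal markers, however, 3 were lower and 1 was higher in the Puro than in the Hygro vector. KRT14,KRT16 was 25.8-fold lower between the vectors (limma adjusted p = 0.0226) and KRT17 11.9-fold lower (limma adjusted p = 0.043). None of the 6 was higher in MRTFB dN against the Hygro vector, and 2 were lower. The part of all these changes in the results was not tested. Summed FPKM ran from 2.01 to 149 over the 4 leukocyte, 0.805 to 16.4 over the 5 fibroblast and 0.0687 to 14.8 over the 3 endothelial markers. In bulk RNA, more cells with a transcript and more transcript per cell cannot be told apart.

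All 10 genes were detected and all passed the filter for testing. AMOT, AMOTL2 and WWC1 varied most. AMOT spanned 0.230 to 71.3 FPKM over 13 libraries, AMOTL2 7.89 to 101 and WWC1 7.42 to 58.7 over 14. LATS2 spanned 3.63 to 22.6 FPKM, SAV1 2.54 to 10.99, AMOTL1 6.01 to 25.1 and STK3, over 13 libraries, 10.7 to 38.0. NF2, STK4 and LATS1 moved least, between 5.401 and 9.77, 6.14 and 11.5, and 2.25 and 6.48 FPKM. Replicate 1 stood above replicate 2 for 9 of the 10 genes in MRTFB dN Y305A/dPY, for 8 in MRTFB dN Y305A and MRTFB dN, for 9 in each vector, for 6 of 8 in MRTFB dN dPY and for 5 of 10 in YAP 5SA. The share of all loci that stood higher in replicate 1 was not counted, so these numbers are no result about the set.

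**Figure D1:**
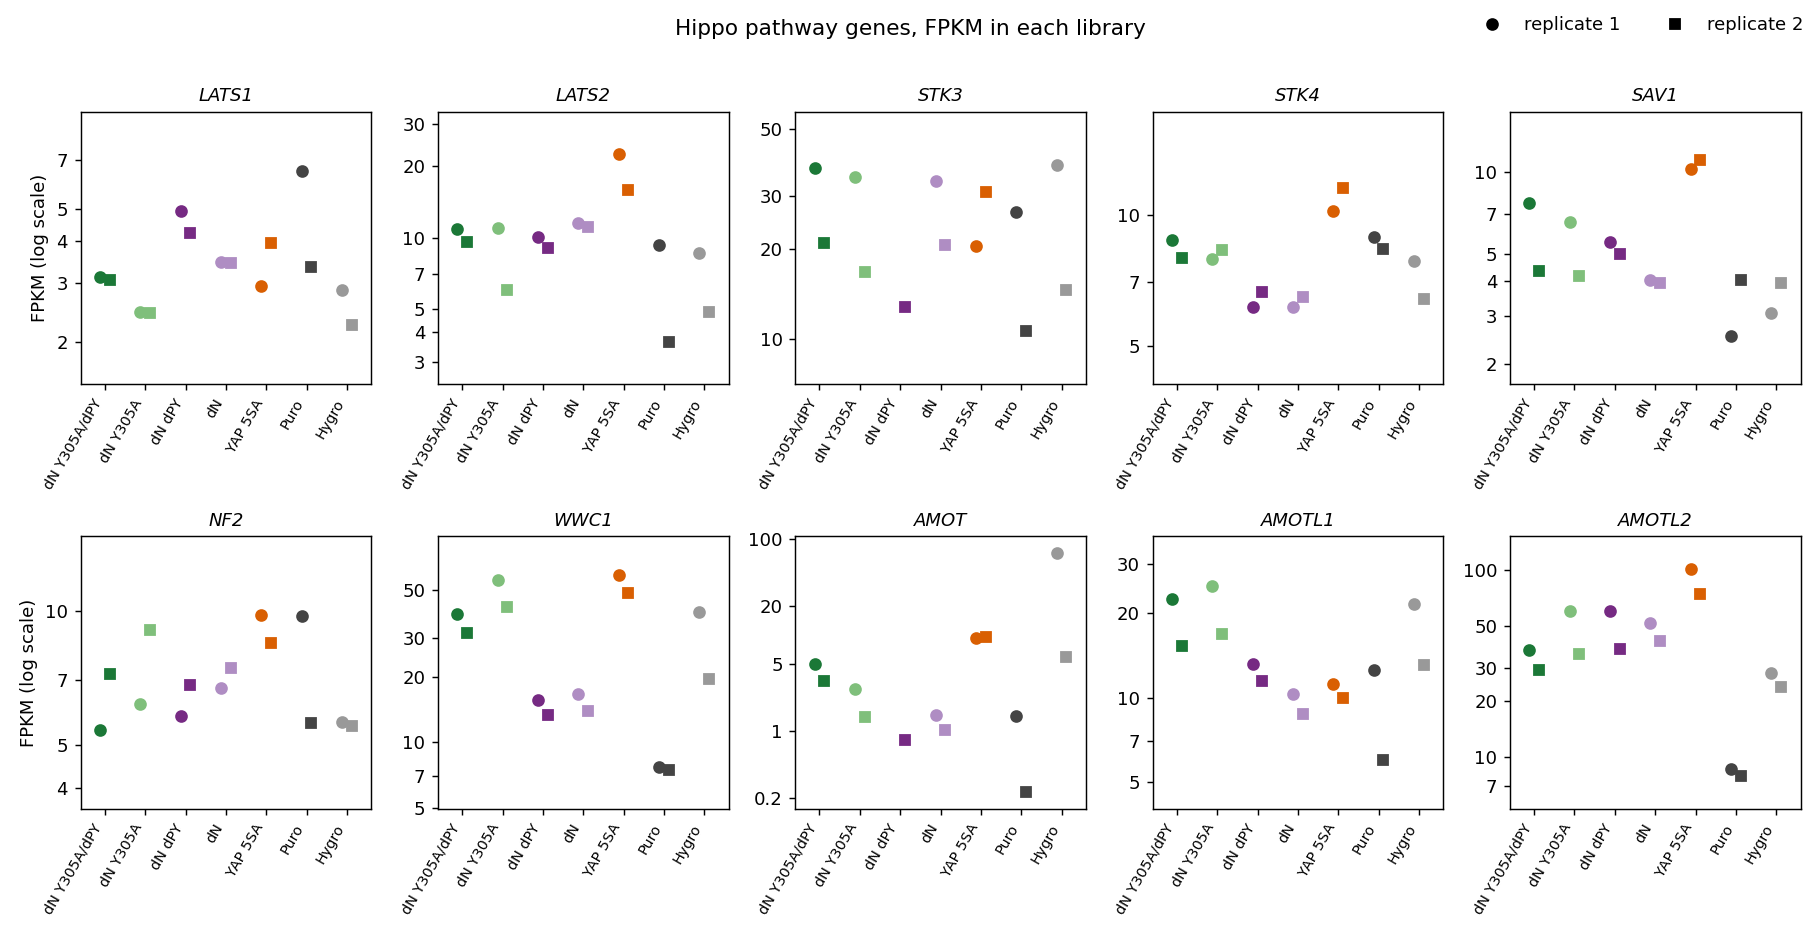
FPKM of each gene on a log axis in the 14 libraries, with circles for replicate 1 and squares for replicate 2, and the groups from MRTFB dN Y305A/dPY on the left to the Hygro vector on the right. AMOTL2 is lowest in the Puro vector (8.57 and 7.89) and highest in YAP 5SA (101 and 74.5), and AMOT reaches 71.3 in 1 Hygro library.

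The vectors themselves differed in 3 of these genes, which bears on each comparison with them. In limma's test on log2(FPKM + 1), adjusted over 13137 loci with a threshold of 0.05, AMOT, AMOTL2 and WWC1 were lower in the Puro than in the Hygro vector and none was higher, where 14.2% of all loci passed in either direction (5.69% higher and 8.55% lower). AMOTL2 stood at 8.57 and 7.89 FPKM in the Puro vector, against 28.0 and 23.7 in the Hygro vector (log2 fold change -1.54 ± 0.33 SE, adjusted p = 0.0173). WWC1 stood at 7.70 and 7.42 FPKM, against 39.6 and 19.4 (-1.75 ± 0.32, adjusted p = 0.0115). AMOT stood at 1.45 and 0.230 FPKM, against 71.3 and 5.85 (-3.68 ± 0.84, adjusted p = 0.0242). The groups do not overlap for any of the 3, although the Hygro replicates of AMOT lie 12.2-fold apart. AMOT lost the call without Puro vector replicate 1 (-4.18, adjusted p = 0.0531) or replicate 2 (-3.19, adjusted p = 0.0686) and was -1.98 without Hygro vector replicate 1. AMOTL2 lost it without Hygro vector replicate 1 (-1.42, adjusted p = 0.0549) or replicate 2 (-1.65, adjusted p = 0.0568).

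Against the Hygro vector, 2 of the 10 genes were higher in YAP 5SA, AMOTL2 and SAV1, and none was lower, with 8.27% of all loci called (3.93% higher and 4.34% lower). Against the Puro vector 4 were higher, AMOTL2, WWC1, SAV1 and LATS2, with 9.83% of loci called (5.57% higher and 4.26% lower). The MRTFB forms were set against the Puro vector, and these 4 comparisons share its libraries. MRTFB dN Y305A/dPY had 2 genes higher (AMOTL2 and WWC1), where 26.4% of loci were called (15.0% higher and 11.4% lower). MRTFB dN Y305A had 3 higher (AMOTL2, WWC1 and AMOTL1), where 25.2% were called (14.2% higher and 11.0% lower). MRTFB dN dPY had 1 higher (AMOTL2), where 35.8% were called (21.0% higher and 14.8% lower). MRTFB dN had 2 higher (AMOTL2 and WWC1), where 36.8% were called (21.8% higher and 15.0% lower). No member was lower in the 4 MRTFB forms than in the Puro vector. With 10 genes, 1 to 3 calls lie near these shares of all loci and are no result about the set.

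The same MRTFB forms gave a different picture against the Hygro vector. None of the 10 passed in limma's test in MRTFB dN Y305A/dPY, where 2.67% of loci were called (1.29% higher and 1.38% lower) and 1 member had an unadjusted p under 0.05. None passed in MRTFB dN Y305A either, where 2.61% were called (1.33% higher and 1.28% lower) and 3 members had such a p. AMOT alone was called in MRTFB dN dPY and in MRTFB dN, lower in both. Of all loci 20.6% were called in MRTFB dN dPY (12.3% higher and 8.25% lower) and 19.1% in MRTFB dN (7.09% lower). Which vector serves as the control therefore decides each of the 8 calls against the Puro vector in MRTFB cells.

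**Figure D2:**
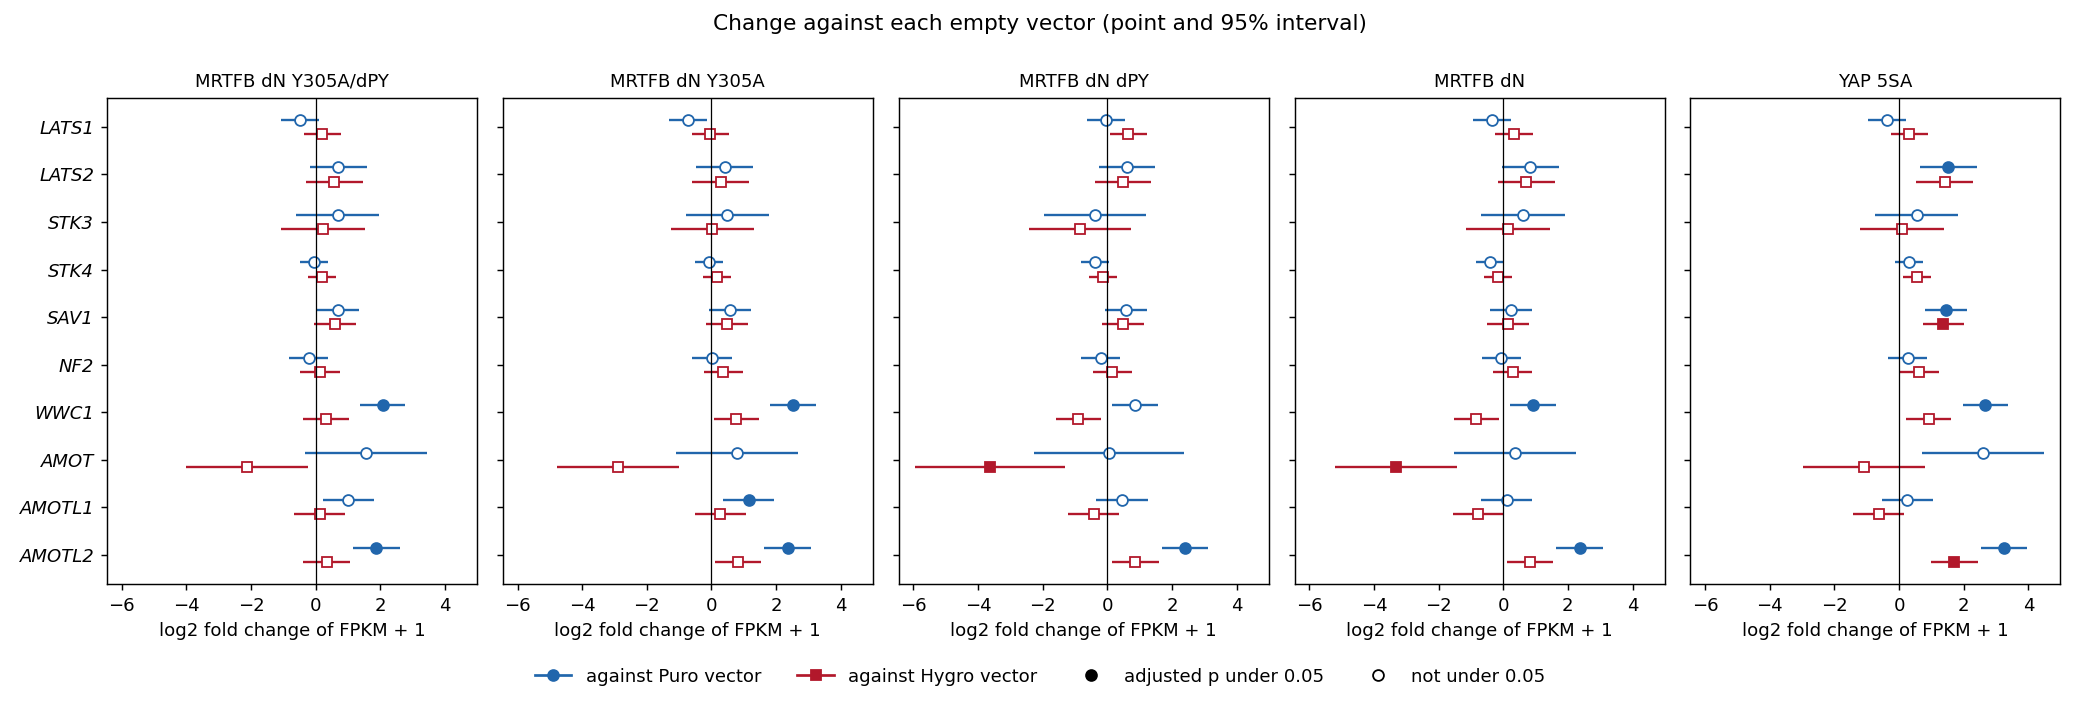
Log2 fold change of FPKM + 1 with its 95% interval for each gene in the 5 construct groups, against the Puro vector (blue circles) and against the Hygro vector (red squares), filled where the adjusted p is under 0.05. AMOTL2 in YAP 5SA is filled against both, at 3.25 and 1.71, whereas in the 4 MRTFB forms AMOTL2, and in all but MRTFB dN dPY WWC1, is filled against the Puro vector only.

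Of the LATS kinase genes, LATS2 was highest in YAP 5SA and LATS1 was not. LATS2 stood at 22.6 and 15.8 FPKM in YAP 5SA, beside 9.29 and 3.63 in the Puro vector and 8.61 and 4.88 in the Hygro vector. Both YAP 5SA libraries lie above all other libraries. The difference passed against the Puro vector (log2 fold change 1.53 ± 0.40, adjusted p = 0.0392) and just missed against the Hygro vector (1.40 ± 0.40, adjusted p = 0.055, 95% interval 0.53 to 2.28). In the MRTFB forms LATS2 stood at 10.9 and 9.61 FPKM in MRTFB dN Y305A/dPY, 10.99 and 6.03 in MRTFB dN Y305A, 10.0 and 9.02 in MRTFB dN dPY, and 11.5 and 11.1 in MRTFB dN. No comparison among these 4 passed, and none passed against the Puro vector, where the log2 fold changes were 0.41 to 0.83, or against the Hygro vector, where they were 0.29 to 0.71. In MRTFB dN it passed without Puro vector replicate 1, the library that stands apart (1.41, adjusted p = 0.0284).

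LATS1 had 2.94 and 3.96 FPKM in YAP 5SA, beside 6.48 and 3.34 in the Puro vector and 2.86 and 2.25 in the Hygro vector, so that YAP 5SA overlaps the Puro vector and lies just above the Hygro vector. It had 3.12 and 3.07 FPKM in MRTFB dN Y305A/dPY, 2.47 and 2.45 in MRTFB dN Y305A, 4.92 and 4.23 in MRTFB dN dPY, and 3.46 and 3.45 in MRTFB dN. The 4 MRTFB groups do not overlap one another, but no comparison of LATS1 passed the test. In MRTFB dN its sign rested on Puro vector replicate 1. Without Puro vector replicate 2, LATS1 was lower in MRTFB dN by -0.75 on the log2 scale (adjusted p = 0.0303), and without replicate 1 the value was 0.036 (adjusted p = 0.922). In MRTFB dN Y305A against the Puro vector LATS1 gave -0.72 ± 0.26 (adjusted p = 0.0661), and passed without Puro vector replicate 2 (-1.11, adjusted p = 0.00798) and under median-of-ratios scaling (-1.03, adjusted p = 0.029). The value was -0.33 without Puro vector replicate 1 (adjusted p = 0.366) and -0.034 against the Hygro vector (adjusted p = 0.987). The ratio of LATS2 to LATS1 in FPKM was 7.68 and 3.99 in YAP 5SA, between 2.04 and 4.45 in the MRTFB libraries, 1.43 and 1.09 in the Puro vector, and 3.01 and 2.17 in the Hygro vector.

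The MST kinase genes had no call against either vector, although STK4 came near. STK4 (MST1) stood at 10.2 and 11.5 FPKM in YAP 5SA, beside 8.91 and 8.36 in the Puro vector and 7.86 and 6.42 in the Hygro vector. YAP 5SA is highest without overlap, and the log2 fold change against the Hygro vector was 0.55 ± 0.20 (adjusted p = 0.119). STK4 stood at 8.74 and 7.97 FPKM in MRTFB dN Y305A/dPY, 7.93 and 8.31 in MRTFB dN Y305A, 6.14 and 6.64 in MRTFB dN dPY, and 6.14 and 6.49 in MRTFB dN. The MRTFB forms that bind SRF lie below both Puro libraries, by -0.38 ± 0.20 in MRTFB dN dPY (adjusted p = 0.15) and -0.40 ± 0.20 in MRTFB dN (adjusted p = 0.134). With the vectors exchanged the values were 0.30 ± 0.20 in YAP 5SA against the Puro vector (adjusted p = 0.356), and -0.13 ± 0.20 in MRTFB dN dPY (adjusted p = 0.691) and -0.15 ± 0.20 in MRTFB dN (adjusted p = 0.663) against the Hygro vector. With no filter on low values, YAP 5SA against the Hygro vector and both MRTFB forms against the Puro vector passed, with adjusted p of 0.0378 in YAP 5SA, 0.0421 in MRTFB dN dPY and 0.0375 in MRTFB dN. The difference between responses, MRTFB dN minus Puro vector less YAP 5SA minus Hygro vector, passed for STK4 alone, at -0.94 ± 0.28 (adjusted p = 0.028), with 29.0% of all loci called (17.9% higher and 11.1% lower). That call was lost when any of 6 of the 8 libraries was left out: YAP 5SA replicate 2 (-0.86, adjusted p = 0.101) or 1 (-1.02, adjusted p = 0.0606), MRTFB dN replicate 1 (-0.91, adjusted p = 0.0881) or 2 (-0.98, adjusted p = 0.0536), Hygro vector replicate 2 (-0.82, adjusted p = 0.0832) and Puro vector replicate 1 (-0.90, adjusted p = 0.05).

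STK3 (MST2) had the highest level of the kinase genes in most libraries. It stood at 20.5 and 30.9 FPKM in YAP 5SA, beside 26.5 and 10.7 in the Puro vector and 38.0 and 14.6 in the Hygro vector. It stood at 37.0 and 20.9 FPKM in MRTFB dN Y305A/dPY, 34.6 and 16.8 in MRTFB dN Y305A, 33.6 and 20.6 in MRTFB dN, and 12.8 in the 1 library of MRTFB dN dPY with a value. The groups overlap, except that this single value lies below all libraries of YAP 5SA, the Hygro vector and the other MRTFB groups. The 95% interval of its change in YAP 5SA against the Hygro vector, -1.20 to 1.38 on the log2 scale, holds 2-fold changes in both directions. In FPKM, STK3 exceeded STK4 in every library with both values, by 1.27-fold in Puro vector replicate 2 to 5.48-fold in MRTFB dN replicate 1.

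SAV1, the scaffold that joins MST to LATS, was higher in YAP 5SA than in either vector. It stood at 10.2 and 10.99 FPKM in YAP 5SA, beside 2.54 and 4.03 in the Puro vector and 3.07 and 3.95 in the Hygro vector. No library of another group reached YAP 5SA, the next being MRTFB dN Y305A/dPY replicate 1 at 7.67 FPKM. The log2 fold change was 1.37 ± 0.29 with the Hygro vector as control (adjusted p = 0.0182), and 1.46 ± 0.29 with the Puro vector (adjusted p = 0.0133). The call against the Hygro vector was lost without YAP 5SA replicate 1 (1.42, adjusted p = 0.0893), YAP 5SA replicate 2 (1.32, adjusted p = 0.147) or Hygro vector replicate 1 (1.23, adjusted p = 0.0879), and with no filter on low values (adjusted p = 0.0506).

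In the MRTFB groups SAV1 did not pass with all libraries. It stood at 7.67 and 4.36 FPKM in MRTFB dN Y305A/dPY, 6.53 and 4.16 in MRTFB dN Y305A, 5.55 and 5.00 in MRTFB dN dPY, and 4.05 and 3.94 in MRTFB dN. Against the Puro vector the log2 fold changes were 0.69, 0.56, 0.57 and 0.24 in that order, with adjusted p of 0.0996, 0.169, 0.147 and 0.537. In MRTFB dN Y305A/dPY it passed without its replicate 2 (1.04, adjusted p = 0.044) and was 0.35 without replicate 1 (adjusted p = 0.55). With the Hygro vector as control the values were 0.60, 0.47, 0.48 and 0.16, with adjusted p of 0.365, 0.556, 0.284 and 0.773. Set beside YAP 5SA, the difference between responses was -1.12 ± 0.41 in MRTFB dN (adjusted p = 0.0626, 95% interval -2.03 to -0.21). It passed under median-of-ratios scaling (-1.42, adjusted p = 0.0174) and at -1.38 without Puro vector replicate 1 (adjusted p = 0.0453).

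NF2, which encodes merlin, passed in no comparison. It stood at 9.77 and 8.45 FPKM in YAP 5SA, beside 9.70 and 5.61 in the Puro vector and 5.63 and 5.52 in the Hygro vector. YAP 5SA lies above the Hygro vector and overlaps the Puro vector, and the log2 fold changes were 0.62 ± 0.28 (adjusted p = 0.207) and 0.26 ± 0.28 (adjusted p = 0.574). It stood at 5.401 and 7.21 FPKM in MRTFB dN Y305A/dPY, 6.19 and 9.06 in MRTFB dN Y305A, 5.80 and 6.83 in MRTFB dN dPY, and 6.70 and 7.44 in MRTFB dN, and all 4 overlap the Puro vector. Their log2 fold changes were -0.21 to 0.02 against the Puro vector and 0.14 to 0.37 against the Hygro vector.

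WWC1 differed between MRTFB forms by SRF binding. It stood at 38.7 and 31.9 FPKM in MRTFB dN Y305A/dPY and 55.8 and 41.7 in MRTFB dN Y305A, which lack SRF binding, and at 15.7 and 13.3 in MRTFB dN dPY and 16.6 and 13.9 in MRTFB dN, which keep it. The 2 pairs of groups do not overlap. WWC1 was higher in MRTFB dN Y305A than in MRTFB dN by 1.60 ± 0.32 on the log2 scale (adjusted p = 0.00536), the 1 member called there, with 16.7% of loci called (6.12% higher and 10.6% lower). It was higher in MRTFB dN Y305A/dPY than in MRTFB dN dPY by 1.23 ± 0.32 (adjusted p = 0.0222), again the 1 member called, with 17.4% of loci called (6.76% higher and 10.7% lower). The first call was lost without MRTFB dN Y305A replicate 1 (1.40, adjusted p = 0.0503). The second was lost without any 1 of its 4 libraries, at 1.09 (adjusted p = 0.122) and 1.36 (adjusted p = 0.0598) without MRTFB dN Y305A/dPY replicate 1 and 2, and 1.34 (adjusted p = 0.0681) and 1.11 (adjusted p = 0.125) without MRTFB dN dPY replicate 1 and 2. With no filter on low values its adjusted p was 0.0533.

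The level of the introduced gene also differed between these libraries. MKL2 stood at 610 and 343 FPKM in MRTFB dN Y305A/dPY, 404 and 294 in MRTFB dN Y305A, 286 and 171 in MRTFB dN dPY, and 299 and 165 in MRTFB dN. Its log2 fold change with loss of SRF binding was 0.63 ± 0.42 in MRTFB dN Y305A against MRTFB dN (adjusted p = 0.377) and 1.04 ± 0.42 in MRTFB dN Y305A/dPY against MRTFB dN dPY (adjusted p = 0.122), and neither difference passed. Its part in the WWC1 difference was not tested.

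Against the empty vectors, WWC1 gave opposite signs in the forms that bind SRF. Beside 7.70 and 7.42 FPKM in the Puro vector, WWC1 was higher in MRTFB dN Y305A/dPY by 2.08 ± 0.32 (adjusted p = 0.00331), in MRTFB dN Y305A by 2.52 ± 0.32 (adjusted p = 0.00173) and in MRTFB dN by 0.92 ± 0.32 (adjusted p = 0.0426), and the value in MRTFB dN dPY was 0.85 ± 0.32 (adjusted p = 0.058). Beside 39.6 and 19.4 FPKM in the Hygro vector, the values were 0.33 in MRTFB dN Y305A/dPY, 0.77 in MRTFB dN Y305A, -0.90 in MRTFB dN dPY and -0.83 in MRTFB dN, and none passed (adjusted p = 0.698, 0.301, 0.0712 and 0.0977). The call in MRTFB dN was lost without any 1 of its 4 libraries, at 0.80 (adjusted p = 0.201) and 1.04 (adjusted p = 0.0801) without MRTFB dN replicate 1 and 2, and 0.95 (adjusted p = 0.109) and 0.90 (adjusted p = 0.101) without Puro vector replicate 1 and 2. It was also lost under median-of-ratios scaling (0.64, adjusted p = 0.133) and with no filter (adjusted p = 0.0826). In YAP 5SA, WWC1 stood at 58.7 and 48.5 FPKM, above both vectors, and it was higher by 2.67 ± 0.32 than in the Puro vector (adjusted p = 0.00086). The value against the Hygro vector was 0.92 ± 0.32 and did not pass (adjusted p = 0.106). Without Hygro vector replicate 1 it passed there (1.41, adjusted p = 0.0324).

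Loss of YAP binding left no member called. In MRTFB dN dPY against MRTFB dN, none of the 10 passed in limma's test and none had an unadjusted p under 0.05, with 0.236% of all loci called (0.145% higher and 0.0913% lower) and 438 at such an unadjusted p. Between MRTFB dN Y305A/dPY and MRTFB dN Y305A, none passed and none had an unadjusted p under 0.05, with 0.0152% of loci called, all of them lower, and 271 at such a p. For AMOTL2 the change with loss of YAP binding was 0.04 (95% interval -0.68 to 0.76) where SRF binding was kept and -0.48 (-1.20 to 0.24) where it was lost. For LATS2 it was -0.22 (-1.10 to 0.65) and 0.29 (-0.59 to 1.17). These intervals do not show that the forms act alike. The difference between the 2 effects of SRF binding loss, with and without YAP binding, passed for no member (0 at an unadjusted p under 0.05), with 0.0228% of loci called (0.0152% higher and 0.00761% lower) and 254 at such a p.

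**Figure D3:**
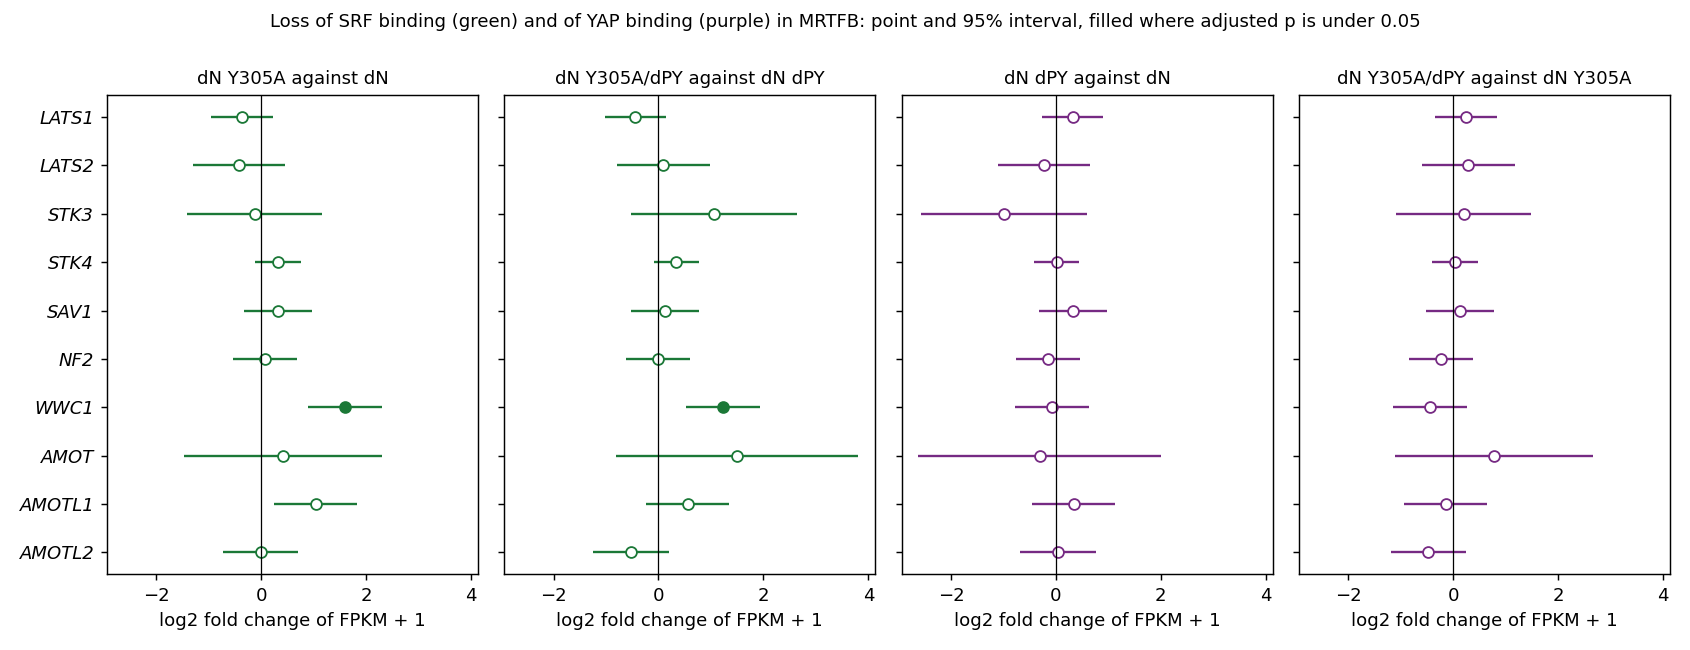
Log2 fold change of FPKM + 1 with its 95% interval for each gene when MRTFB loses SRF binding (2 panels on the left, green) or YAP binding (2 panels on the right, purple), filled where the adjusted p is under 0.05. WWC1 is filled in both green panels, at 1.60 and 1.23, and no gene is filled in the purple ones.

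AMOTL2, the angiomotin with the highest level in YAP 5SA and in every MRTFB library with values for the whole family, was higher in all 5 construct groups than in the Puro vector. It stood at 37.4 and 29.0 FPKM in MRTFB dN Y305A/dPY, 60.1 and 35.5 in MRTFB dN Y305A, 60.4 and 37.8 in MRTFB dN dPY, and 51.8 and 41.9 in MRTFB dN, against 8.57 and 7.89 in the Puro vector and 28.0 and 23.7 in the Hygro vector. All 8 MRTFB libraries lie above all 4 vector libraries. Against the Puro vector the log2 fold changes were 1.88 ± 0.33 in MRTFB dN Y305A/dPY (adjusted p = 0.0047), 2.36 ± 0.33 in MRTFB dN Y305A (adjusted p = 0.00279), 2.40 ± 0.33 in MRTFB dN dPY (adjusted p = 0.000399) and 2.37 ± 0.33 in MRTFB dN (adjusted p = 0.00044). Against the Hygro vector they were 0.34, 0.82, 0.87 and 0.83 in the same order, with adjusted p of 0.688, 0.279, 0.0862 and 0.105. The calls held without each library in turn, except in MRTFB dN Y305A/dPY without its replicate 1 (1.70, adjusted p = 0.0539). Loss of SRF binding gave -0.01 ± 0.33 in MRTFB dN Y305A against MRTFB dN (95% interval -0.73 to 0.71) and -0.52 ± 0.33 in MRTFB dN Y305A/dPY against MRTFB dN dPY (-1.24 to 0.19).

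In YAP 5SA, AMOTL2 reached 101 and 74.5 FPKM, above every other library. On the log2 scale it exceeded by 3.25 ± 0.33 the level in the Puro vector (adjusted p = 0.000403) and by 1.71 ± 0.33 that in the Hygro vector (adjusted p = 0.0109). The call against the Hygro vector was lost without YAP 5SA replicate 1 (1.495, adjusted p = 0.0929), YAP 5SA replicate 2 (1.93, adjusted p = 0.0576) or Hygro vector replicate 2 (1.60, adjusted p = 0.0512). The value of AMOTL2 in MRTFB dN against the Puro vector and that in YAP 5SA against the Hygro vector differed by 0.65 ± 0.46 (adjusted p = 0.3). With the vectors exchanged the order turned, at 0.83 in MRTFB dN against the Hygro vector and 3.25 in YAP 5SA against the Puro vector. The sign of this difference therefore depends on the choice of vectors.

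AMOTL1 followed another order. It stood at 22.5 and 15.3 FPKM in MRTFB dN Y305A/dPY, 25.1 and 16.9 in MRTFB dN Y305A, 13.2 and 11.5 in MRTFB dN dPY, 10.3 and 8.77 in MRTFB dN, and 11.2 and 9.94 in YAP 5SA, against 12.5 and 6.01 in the Puro vector and 21.6 and 13.1 in the Hygro vector. The forms without SRF binding lie above those with it, with no overlap. AMOTL1 was higher in MRTFB dN Y305A than in the Puro vector by 1.15 ± 0.36 (adjusted p = 0.0395) and the value in MRTFB dN Y305A/dPY was 1.01 ± 0.36 (adjusted p = 0.0594), which passed without Puro vector replicate 1 (1.48, adjusted p = 0.0332). With the Hygro vector as control the values were 0.27 ± 0.36 in MRTFB dN Y305A (adjusted p = 0.831) and 0.13 ± 0.36 in MRTFB dN Y305A/dPY (adjusted p = 0.925). Against MRTFB dN, MRTFB dN Y305A gave 1.04 ± 0.36 (adjusted p = 0.0761). The call in MRTFB dN Y305A against the Puro vector was lost without its replicate 1 (0.88, adjusted p = 0.255) or Puro vector replicate 2 (0.68, adjusted p = 0.18), under median-of-ratios scaling (0.80, adjusted p = 0.13) and with no filter (adjusted p = 0.0982). In YAP 5SA, AMOTL1 did not pass against the Hygro vector (-0.63 ± 0.36, adjusted p = 0.331) or the Puro vector (0.25 ± 0.36, adjusted p = 0.695).

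AMOT, the founding member of the family, had 1 library far above the rest. It stood at 4.99 and 3.34 FPKM in MRTFB dN Y305A/dPY, 2.70 and 1.39 in MRTFB dN Y305A, 0.802 in the 1 library of MRTFB dN dPY with a value, 1.46 and 1.02 in MRTFB dN, and 9.40 and 9.44 in YAP 5SA, against 1.45 and 0.230 in the Puro vector and 71.3 and 5.85 in the Hygro vector. YAP 5SA lies between the Hygro libraries. The MRTFB forms were not fitted against the Hygro vector with single libraries left out. How far the calls of AMOT there rest on Hygro vector replicate 1 was therefore not tested. Against the Hygro vector AMOT was lower in MRTFB dN by -3.32 ± 0.84 (adjusted p = 0.0215) and in MRTFB dN dPY, fitted from 1 library, by -3.63 ± 1.03 (adjusted p = 0.0336). In YAP 5SA the value against the Hygro vector was -1.09 ± 0.84 (adjusted p = 0.495), but 0.61 without Hygro vector replicate 1 (adjusted p = 0.477) and -2.80 without replicate 2 (adjusted p = 0.0111), so its direction there rests on that library.

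The make-up of the family in FPKM shifted with these levels. AMOTL2 held 57.6% and 61.0% of the summed angiomotin FPKM in MRTFB dN Y305A/dPY, 68.4% and 66.1% in MRTFB dN Y305A, 75.5% in the complete library of MRTFB dN dPY, 81.5% and 81.0% in MRTFB dN, and 83.1% and 79.4% in YAP 5SA. It held 38.1% and 55.8% in the Puro vector and 23.1% and 55.6% in the Hygro vector. AMOT took 59.0% in Hygro vector replicate 1 and 13.7% in replicate 2. The sum was 64.9 and 47.6 FPKM in MRTFB dN Y305A/dPY, 122 and 93.8 in YAP 5SA, 22.5 and 14.1 in the Puro vector, and 121 and 42.7 in the Hygro vector.

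**Figure D4:**
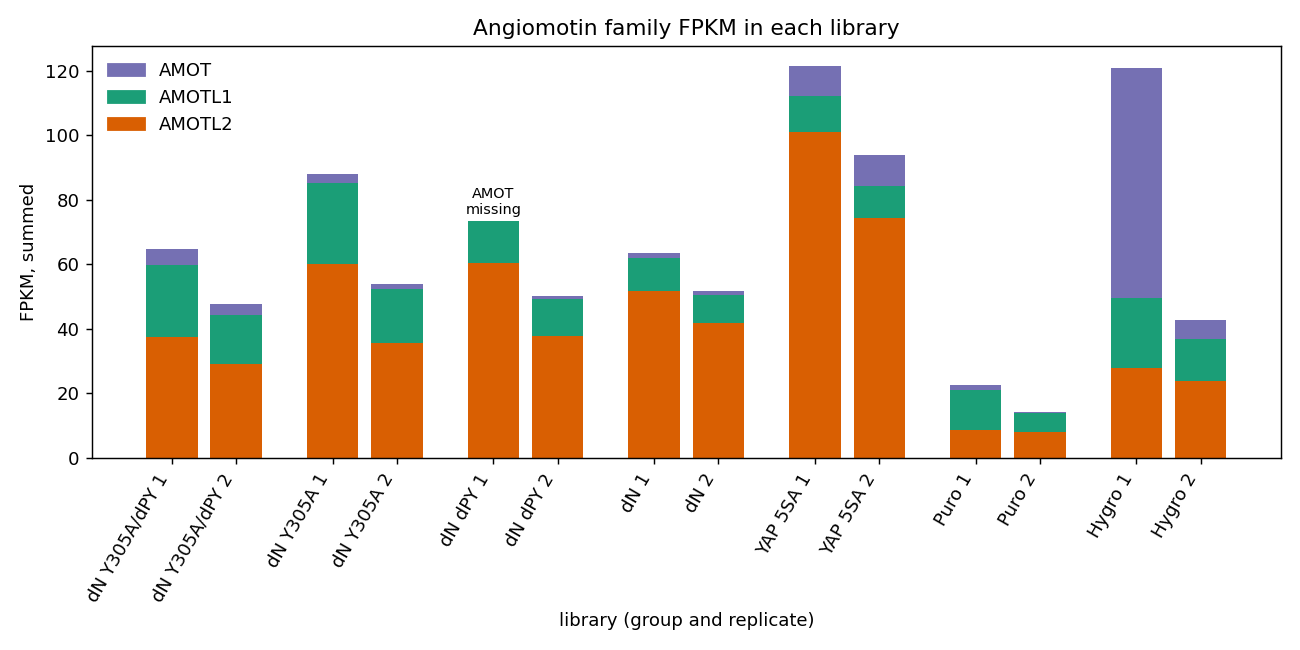
Summed FPKM of AMOTL2, AMOTL1 and AMOT in each library, with a stacked bar per library and the groups from MRTFB dN Y305A/dPY on the left to the Hygro vector on the right. AMOTL2 makes up most of the bar in YAP 5SA (83.1% and 79.4%), whereas AMOT makes up 59.0% of Hygro vector replicate 1 and is missing in 1 MRTFB dN dPY library.

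Other genes of the pathway were followed in 3 lists. Of 36 tested upstream regulators, 10 to 13 were higher than in the Puro vector in each MRTFB form and none was lower, where 14.2% to 21.8% of all loci were higher and 11.0% to 15.0% lower. MRTFB dN had 13 higher (median log2 fold change 0.33, against 0.09 over all loci), with CTNNA1, the alpha-catenin of adherens junctions, 7.53-fold higher (adjusted p = 0.000229), the polarity gene CRB3 5.11-fold (adjusted p = 0.00221), the atypical cadherin FAT4 3.11-fold (adjusted p = 0.000113) and WWC2, a paralog of WWC1, 3.06-fold (adjusted p = 0.00114). Without Puro vector replicate 1 the count was 9 in MRTFB dN and 4 in place of 10 in MRTFB dN Y305A. Against the Hygro vector 7 were higher and 2 lower in MRTFB dN, and none passed in MRTFB dN Y305A. In YAP 5SA against the Hygro vector 6 were higher and 3 lower (median 0.11, against -0.01 over all loci, of which 3.93% were higher and 4.34% lower), among them FRMD6,FRMD6-AS2, a locus shared with an antisense gene (3.38-fold higher, adjusted p = 0.0221), WWC2 (2.73-fold higher, adjusted p = 0.0083) and the polarity kinase MARK2 (2.84-fold lower, adjusted p = 0.0025). Against the Puro vector 4 were higher and none lower in YAP 5SA, where 5.57% of all loci were higher and 4.26% lower. The vectors differed in this list as well, with 6 genes lower and 0 higher in the Puro than in the Hygro vector. Of all loci 8.55% were lower and 5.69% higher there. Among the 6 were MARK2 (3.28-fold lower, limma adjusted p = 0.00311) and CTNNA1 (3.22-fold lower, limma adjusted p = 0.0184).

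SRF binding separated the paralogs WWC1 and WWC2. WWC2 was lower in MRTFB dN Y305A than in MRTFB dN by -1.77 ± 0.26 (adjusted p = 0.000784) and in MRTFB dN Y305A/dPY than in MRTFB dN dPY by -1.66 ± 0.26 (adjusted p = 0.00121), where WWC1 was higher. FAT4 was lower by -2.03 ± 0.18 (adjusted p = 2.48e-05) and -1.83 ± 0.18 (adjusted p = 5.57e-05), and STK38L, a kinase related to LATS, by -1.99 ± 0.29 (adjusted p = 0.000758) and -2.04 ± 0.29 (adjusted p = 0.000642). Over the list 2 were higher and 5 lower in MRTFB dN Y305A against MRTFB dN (median -0.29, against 0.03 over all loci), and 5 higher and 4 lower in MRTFB dN Y305A/dPY against MRTFB dN dPY (-0.07, against 0.04). Of all loci 6.12% were higher and 10.6% lower in the first comparison, and 6.76% and 10.7% in the second. The counts lie near these shares and are no result about the list. In MRTFB dN dPY against MRTFB dN the locus DCK,MOB1B, which combines deoxycytidine kinase with the LATS cofactor MOB1B, was the 1 higher of the list (1.54 ± 0.26, adjusted p = 0.0472), and none was lower, where 0.145% of all loci were higher and 0.0913% lower. The same locus was lower in MRTFB dN Y305A/dPY than in MRTFB dN dPY by -2.55 ± 0.26 (adjusted p = 6.3e-05).

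Genes chosen by name as possible inhibitors of LATS or MST, direct or indirect, formed the second list, of 18 tested. Their action on these kinases was not tested. In MRTFB dN against the Puro vector 10 were higher and 1 lower (median 0.89, against 0.09 over all loci, of which 21.8% were higher and 15.0% lower), and 4 and 1 against the Hygro vector. The integrin-linked kinase gene ILK led, 12.8-fold higher (adjusted p = 2.75e-05), followed by the phosphatase subunit PPP2CB (4.03-fold, adjusted p = 0.00728), the kinase SIK2 (3.85-fold, adjusted p = 0.000564) and the LIM protein gene WTIP (3.66-fold, adjusted p = 0.00847). MRTFB dN dPY had 11 higher and 1 lower, beside 21.0% and 14.8% of all loci. MRTFB dN Y305A and MRTFB dN Y305A/dPY had 5 higher each and none lower, where 14.2% and 15.0% of all loci were higher. No call of either was left against the Hygro vector, where 1.33% and 1.29% of all loci were higher. Without Puro vector replicate 1 the counts were 3 higher in MRTFB dN Y305A/dPY, 1 in MRTFB dN Y305A, 7 in MRTFB dN dPY and 7 in MRTFB dN. For the fit without that library no share of all loci is given, and its counts are no result about the list. ILK was lower without SRF binding, by -2.19 ± 0.34 in MRTFB dN Y305A against MRTFB dN (adjusted p = 0.00114) and by -2.10 ± 0.34 in MRTFB dN Y305A/dPY against MRTFB dN dPY (adjusted p = 0.00155). YAP 5SA had 4 higher and none lower against the Hygro vector (median 0.06, against -0.01 over all loci, of which 3.93% were higher), which were WTIP (3.26-fold, adjusted p = 0.0406), the LIM protein gene AJUBA (2.52-fold, adjusted p = 0.0127), RASSF5 (2.35-fold, adjusted p = 0.0262) and FGFR1OP2 (1.90-fold, adjusted p = 0.0219).

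Of 10 tested genes for YAP, TAZ, their cofactors and TEAD factors, 6 were higher in MRTFB dN Y305A/dPY, 3 in MRTFB dN Y305A, 6 in MRTFB dN dPY and 5 in MRTFB dN than in the Puro vector, and none was lower. Over all loci 15.0%, 14.2%, 21.0% and 21.8% were higher in these groups. The list medians were 0.90, 0.64, 1.27 and 1.28, against 0.08, 0.10, 0.07 and 0.09 over all loci. Without Puro vector replicate 1 the numbers higher were 3, 1, 5 and 4. Against the Hygro vector 0, 0, 4 and 3 were higher, with 1 lower in MRTFB dN. TEAD1 was 5.23-fold higher in YAP 5SA than in the Hygro vector (adjusted p = 0.0025) and 3.35-fold higher in MRTFB dN than in the Puro vector (adjusted p = 0.00266), and WWTR1, which encodes TAZ, 3.88-fold higher in MRTFB dN than in the Puro vector (adjusted p = 0.000516). TEAD1 was lower without SRF binding, by -1.41 ± 0.33 in MRTFB dN Y305A against MRTFB dN (adjusted p = 0.0129) and -1.17 ± 0.33 in MRTFB dN Y305A/dPY against MRTFB dN dPY (adjusted p = 0.0314). In YAP 5SA against the Hygro vector 2 of the 10 were higher, the introduced YAP1 and TEAD1, and none was lower, where 3.93% of all loci were higher. Against the Puro vector 5 of the 10 were higher, where 5.57% of all loci were higher. Both counts are over the whole list, which holds YAP1.

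The textbook YAP targets give a scale for these changes. CTGF was higher by 3.43 ± 0.57 in YAP 5SA than in the Hygro vector (adjusted p = 0.00615) and by 10.16 ± 0.57 in MRTFB dN than in the Puro vector (adjusted p = 7.83e-07), while AMOTL2 gave 1.71 and 2.37 in these comparisons. With the vectors exchanged AMOTL2 gave 3.25 in YAP 5SA and 0.83 in MRTFB dN. Between the Puro and the Hygro vector CTGF gave -0.31 ± 0.57 (limma adjusted p = 0.734) and AMOTL2 -1.54 ± 0.33 (limma adjusted p = 0.0173). With loss of SRF binding CTGF was lower by -4.53 ± 0.57 in MRTFB dN Y305A against MRTFB dN (adjusted p = 0.000276) and ANKRD1 by -8.06 ± 0.35 (adjusted p = 1.14e-07). CYR61 gave -1.75 ± 0.60 and did not pass (adjusted p = 0.0742), and AMOTL2 gave -0.01. In MRTFB dN Y305A/dPY against MRTFB dN dPY CTGF was lower by -6.50 ± 0.57 (limma adjusted p = 2.03e-05) and ANKRD1 by -8.22 ± 0.35 (adjusted p = 1.15e-07). There CYR61 passed, at -2.45 ± 0.60 (adjusted p = 0.0169), and AMOTL2 gave -0.52 ± 0.33 (adjusted p = 0.337).

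For AMOTL2, WWC1, SAV1 and AMOTL1, the 4 members called in YAP 5SA against the Hygro vector, in an MRTFB form against the Puro vector or between MRTFB forms, the loci with the most similar pattern were sought among 8280 of mean 3 FPKM or more, by the root mean square difference of the 14 centred log2(FPKM + 1) values. AMOTL2 was nearest to PACSIN2 (0.34), ARPC5 (0.40) and TNFAIP1 (0.43), where the median locus lay at 1.04. PACSIN2, for example, stood at 61.0 and 68.2 FPKM in YAP 5SA and 64.9 and 47.7 in MRTFB dN, against 9.03 and 11.8 in the Puro vector and 22.2 and 19.3 in the Hygro vector. WWC1 was nearest to TTC7A (0.32), RPS27L (0.37) and LIPA (0.43), with a median locus at 1.01. SAV1 was nearest to PHF20 (0.19), RNF41 (0.21) and MAPK8 (0.24), with a median locus at 0.70, and AMOTL1 to TRIP12 (0.19), CNOT1 (0.22) and VPRBP (0.24), with a median locus at 0.67. A gene that varies less has smaller distances to all loci, so the distances are not compared between members.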

How the data were processed

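Strand-specific poly(A) libraries were prepared with a TruSeq kit and sequenced as paired reads, per the labels' protocols. The deposited table holds FPKM per locus and library, made by the authors with Bowtie, TopHat, Cufflinks and Cuffnorm on hg19, per the submitters' processing notes. Versions and the annotation are not given in the sources used here. Of 34071 loci 6528 have no gene name and were left out. No pair of libraries had identical values. Runs of at least 400 zeros that held expressed loci marked the empty part of MRTFB dN dPY replicate 1, whose values were set to missing.

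The test took the 13137 named loci that reached 1 FPKM in 2 or more libraries. Values were put on the log2(FPKM + 1) scale and compared between groups with limma 3.58.1 in R 4.3.3 (trended empirical Bayes, two-sided). All 14 libraries entered 1 fit, with 7 residual and 3.77 prior degrees of freedom, or 6 residual ones where a library was missing. P-values were adjusted by Benjamini and Hochberg over loci within each comparison, and a fold change on log2(FPKM + 1) understates changes of low genes. YAP 5SA was set against the Hygro vector and the MRTFB forms against the Puro vector, with the other vector as alternative. The fit was also run on simulated data, with independent noise in each library and changed loci in MRTFB dN only. That setting leaves out the correlated replicate differences of the MRTFB groups, so it cannot tell how the calls here hold. Python 3.11.15 wrote the tables (pandas 2.3.3, numpy 2.4.6) and matplotlib 3.10.9 the figures. Promoter sequences are RefSeq's.

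The members, the lists and the other named genes were chosen with earlier results of these data known. Named are the 10 members, YAP1, MKL2, CTGF, CYR61 and ANKRD1, up to 4 called genes of each list per comparison and the 3 loci most like each called member, of which the text gives a part. Replicate number was no term of the model. The counts of the lists without Puro vector replicate 1 and against the other vector were added after seeing the data.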

Additional observations from a re-analysis of the deposited data

Results flagged for a closer look

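One result stood out because the same contrast, construct against vector, differed between MRTFB dN and YAP 5SA. The difference between responses for STK4 was -0.94 on the log2 scale (limma adjusted p = 0.028). STK4 gave -0.40 in MRTFB dN against the Puro vector, with both libraries below both vector libraries, and 0.55 in YAP 5SA against the Hygro vector, with both libraries above both. Neither of these passed alone. With the vectors exchanged the values were -0.15 in MRTFB dN against the Hygro vector (adjusted p = 0.663, the libraries overlapping) and 0.30 in YAP 5SA against the Puro vector (adjusted p = 0.356), and the labels do not say which vector carried each construct. Its value was -1.07 to -0.82 without single libraries, and the call was lost in 6 of these 8 fits.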

How the results depend on the processing

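Of the 16 calls of members in the planned comparisons, 6 held without each library in turn and 10 were lost without at least 1. In a fit of the compared groups alone, which leaves few residual degrees of freedom, 13 of the 16 were lost. The numbers of members called there were 0 in YAP 5SA against the Hygro vector (2 with all groups), and, against the Puro vector, 1 in MRTFB dN (2) and 0 in MRTFB dN Y305A (3) and MRTFB dN Y305A/dPY (2), 0 in MRTFB dN Y305A/dPY against MRTFB dN dPY (1), 0 between the vectors (3) and 0 for the difference between responses (1). With the vectors exchanged they were 4 in YAP 5SA, 1 in MRTFB dN, and 0 in MRTFB dN Y305A and MRTFB dN Y305A/dPY. In MRTFB dN dPY against the Puro vector (1), scaling by the median of ratios, no filter and a pseudocount of 0.1 each gave 2. For the difference between responses that scaling gave 2, and for MRTFB dN Y305A/dPY against MRTFB dN dPY no filter gave 0. Without single libraries the numbers were 0 to 2 in YAP 5SA against the Hygro vector, and 1 to 2 in MRTFB dN, 1 in MRTFB dN dPY, 2 to 3 in MRTFB dN Y305A and 1 to 3 in MRTFB dN Y305A/dPY against the Puro vector, 0 to 1 in MRTFB dN Y305A against MRTFB dN, 0 in MRTFB dN Y305A/dPY against MRTFB dN dPY, 2 to 3 between the vectors and 0 to 3 for the difference between responses. STK3 and AMOT could not be fitted without MRTFB dN dPY replicate 2. The replicate number as a block gave 4 in YAP 5SA against the Hygro vector (2), 2 in MRTFB dN dPY against the Puro vector (1) and 2 in MRTFB dN Y305A against MRTFB dN (1), where AMOTL1 was added (1.04, adjusted p = 0.0161). The labels do not say that a number marks a shared batch, and 2 numbers are too few to tell. Across loci, replicate differences of 2 groups had an r of -0.15 to 0.64, above 0.1 in 7 of 21 pairs of groups, which include all 6 pairs of MRTFB groups (0.32 to 0.64).

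Some directions turned, and the cause was not tested. With the vectors exchanged, LATS1 gave 0.21 in MRTFB dN Y305A/dPY and 0.33 in MRTFB dN, WWC1 -0.90 in MRTFB dN dPY and -0.83 in MRTFB dN, and AMOT -3.63 in MRTFB dN dPY, -3.32 in MRTFB dN and 2.59 in YAP 5SA. Of these, LATS1 in both forms, WWC1 in MRTFB dN dPY and AMOT in YAP 5SA passed against neither vector with all libraries. The same holds of other values that turned, among them AMOTL1 in MRTFB dN (-0.77 against the Hygro and 0.11 against the Puro vector), MRTFB dN dPY (-0.42 and 0.45) and YAP 5SA (-0.63 and 0.25), NF2 in MRTFB dN (0.29 and -0.06), and STK4 in MRTFB dN Y305A (0.17 and -0.08). AMOT in MRTFB dN dPY against the Puro vector was -0.060 after scaling and -0.37 with the zeros of the empty part kept. Without single libraries AMOT ranged from -0.44 to 0.55 in MRTFB dN dPY, -0.13 to 0.86 in MRTFB dN, -2.80 to 0.61 in YAP 5SA and -0.24 to 3.16 for the difference between responses, and LATS1 from -0.75 to 0.036 in MRTFB dN. Scaling moved the median of all loci in MRTFB dN against the Puro vector from 0.09 to -0.16.

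The table holds no counts, so no depth limit can be given for low members such as AMOT and LATS1.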
